A study of Homo sapiens with 12 samples.

Results

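ECT2, RACGAP1, PRC1, ANLN, CIT and CEP55 are genes of cytokinesis, the step that cuts a dividing cell into its daughters after the chromosomes have separated. They are 6 of the 14828 genes in the deposited expression table. They were chosen by name for this role, with earlier results of these data known. All were above the filter on low values, as were 14624 genes in all. The cells were 22Rv1, a human prostate carcinoma line, stably carrying a doxycycline-inducible pTRIPZ vector. The vector encoded a nontargeting shRNA (shNT, the control) or either of 2 shRNAs against CENPA (shCENPA1 and shCENPA2), where CENPA is the histone H3 variant that marks the centromere. All 3 lines had doxycycline at 2 µg/ml for 72 h, so the controls share the vector and the drug with the knockdown cells. Each shRNA has 2 libraries, each run in 2 lanes that were averaged here, and the labels do not say whether the libraries came from separate cultures, so the p-values measure only the spread between libraries, which may be technical.

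Cytokinesis is set up by the central spindle, a bundle of antiparallel microtubules between the separating chromosomes. PRC1 crosslinks these microtubules, and RACGAP1, with the kinesin KIF23, forms the centralspindlin complex that brings the exchange factor ECT2 to the cell equator. There ECT2 loads the GTPase RhoA with GTP, and the active RhoA builds a contractile ring of actin and myosin II, which ANLN (anillin) ties to the septins and the membrane. CIT (citron kinase) is held at the ring and at the midbody that remains of it. CEP55 at the midbody recruits ALIX (PDCD6IP) and TSG101, which bring in the ESCRT-III filaments for the final cut. Several of these genes are known to be transcribed mostly in late cell cycle phases, through promoters with a CHR element (cell cycle genes homology region) that is often found beside an NF-Y box.

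The promoters of these genes are shown first, as a description. RefSeq promoters (GRCh38.p14, 250 bases before to 50 after each start, 300 bases in all) matched 5 of the 6 genes, all but RACGAP1, with a second start for ECT2. The letters searched on both strands were TTTGAA (CHR), TTCGAA (a CHR variant), CCAAT (NF-Y box) and GCGGGAA (E2F core). The 120 bases before the start of each gene's first entry are printed 5′ to 3′ in the direction of transcription, with matches to any of these motifs in capitals, so that a motif on the other strand appears as its complement (TTCAAA or ATTGG).
ECT2 (chr3:172750606-172750725, plus strand): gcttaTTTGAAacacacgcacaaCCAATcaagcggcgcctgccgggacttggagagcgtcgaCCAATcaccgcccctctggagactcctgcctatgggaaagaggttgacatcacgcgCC
PRC1 (chr15:90994536-90994655, minus strand): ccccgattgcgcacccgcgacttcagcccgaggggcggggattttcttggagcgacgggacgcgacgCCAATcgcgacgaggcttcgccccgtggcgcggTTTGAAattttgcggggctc
ANLN (chr7:36389742-36389861, plus strand): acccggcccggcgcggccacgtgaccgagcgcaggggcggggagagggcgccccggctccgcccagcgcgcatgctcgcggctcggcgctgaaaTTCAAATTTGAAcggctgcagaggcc
CIT (chr12:119877321-119877440, minus strand): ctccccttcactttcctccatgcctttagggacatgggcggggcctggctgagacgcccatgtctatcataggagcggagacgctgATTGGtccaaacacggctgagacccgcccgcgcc
CEP55 (chr10:93496492-93496611, plus strand): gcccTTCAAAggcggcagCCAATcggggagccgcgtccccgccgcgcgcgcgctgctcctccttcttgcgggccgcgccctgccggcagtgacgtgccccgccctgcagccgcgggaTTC
ANLN carried a pair of abutting CHR matches on opposite strands at -26 to -21 and -20 to -15 from the start, with no NF-Y box in the window. In PRC1 a single CHR match at -20 to -15 followed an NF-Y box at -53 to -49. In CIT and CEP55 the CHR matches nearest the start lay on the other strand at 11 to 16 and across the start at -3 to 3, and in ECT2 at 35 to 40. These are shown in windows of 30 bases with the CHR match in capitals.
ECT2 (chr3:172750746-172750775, plus strand): agagcagcttagttTTTGAAtcggttgtgg
CIT (chr12:119877293-119877322, minus strand): ccgttcctcgggTTCAAAcgcggcggcggg
CEP55 (chr10:93496597-93496626, plus strand): gcagccgcgggaTTCAAActcccggaagcg
Further CHR matches lay at -115 to -110 in ECT2, at -208 to -203 in CIT and at -116 to -111 in CEP55. ECT2 and CIT held 3 NF-Y boxes each and CEP55 held 1, and the only E2F core among the 5 genes was at -185 to -179 in CEP55. The CHR variant was not found in these windows. No motif overlapped another, although in CIT an NF-Y box at -213 to -209 abutted the CHR match.

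A CHR match was thus in the promoters of all 5 genes with an entry, including the second ECT2 start. That start had matches at -242 to -237 and at -182 to -177. The match at -242 to -237 is the same site as the one at 35 to 40 from the first ECT2 start, so these entries are not independent. Of all 35116 RefSeq promoters 15.2% held a CHR match, and of the 14892 promoters of genes tested 10.2%. Counted by gene, these shares were 18.2% of 27305 genes and 13.3% of 10148. Within 50 bases of the start, a window chosen after the positions were seen, 5 of the 6 entries had one, those of the first start of each gene, against 4.62% of all promoters and 2.97% of those of genes tested. The NF-Y box was in 4 of the 6 entries, all but ANLN and the second ECT2 start, and in 34.6% of the promoters of either set. The E2F core stood in 6.55% of all promoters and 9.61% of those of genes tested, and the CHR variant in 1.45% and 1.64%. These are matches to letters and not measured binding sites. In PRC1, ANLN and ECT2 the first RefSeq start lies inside the GENCODE 44 gene bounds given below. The printed stretch before it is wholly inside those bounds in PRC1 and partly in ANLN and ECT2.

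**Figure D1:**
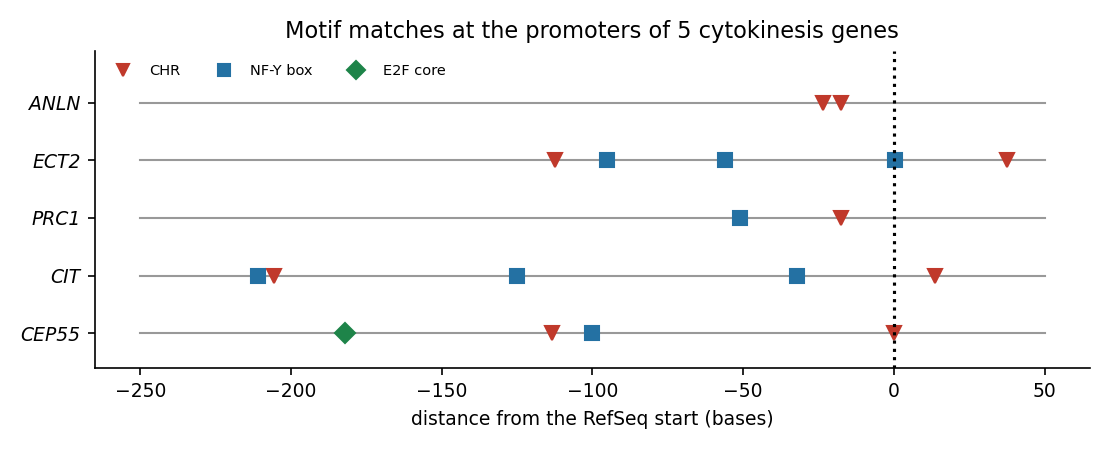
Motif matches by distance from the RefSeq start in bases, in the first promoter entry of 5 cytokinesis genes. Red triangles are CHR, blue squares NF-Y box and green diamonds E2F core matches on either strand, and the grey line is the window searched. Every gene has a CHR match within 50 bases of the start.

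The targeted gene was measured first. CENPA stood at 2.46 and 2.18 log2 RPKM (reads scaled to gene length and library size) in shNT cells. It was at 0.50 and 0.58 under shCENPA1 and at -0.47 and -0.41 under shCENPA2. It was left at 29.1% of control with shCENPA1 (adjusted p = 0.000287) and at 14.7% with shCENPA2 (adjusted p = 1.13e-05). These and all adjusted p-values below are from limma with Benjamini-Hochberg adjustment over the 14624 genes tested. The libraries held 79172294 to 133074655 reads on genes, and the cytokinesis genes drew 964 to 18459 reads in each library. Markers of prostate luminal epithelium were all present (10 of 10), 8 of them at means of 4.69 to 8.11 log2 RPKM, while KLK3 (-1.28) and KLK2 (-0.09) were low. Of 10 markers of basal, blood, stromal and endothelial cells, COL1A1 and DCN had rows, with a summed level of 1.09 to 1.63 RPKM per library against 904 to 983 for the luminal markers.

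All 6 cytokinesis genes fell with both CENPA shRNAs. A gene was called when its log2 fold change was larger than 1 in size and its adjusted p was under 0.05. With shCENPA1 all 6 were called lower, where 1.83% of the genes tested were, and with shCENPA2 again all 6, against 4.45%. Lower calls with both shRNAs applied to all 6 of them and to 1.7% of the genes tested. Their transcripts were left at 31.0 to 48.7% of control with shCENPA1 and at 31.3 to 42.7% with shCENPA2. In each of the 6 genes every knockdown library lay below both shNT libraries, by a gap of 0.87 to 1.62 on the log2 scale, a separation also seen in 20.5% of the genes tested. The lanes of a library differed by at most 0.15 log2 in any of these genes. As the shNT libraries serve in both comparisons, these are not independent of each other. The genes were chosen with earlier results of these data known. The shares over all genes are therefore given for scale and not as a test.

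ECT2, the exchange factor that activates RhoA (chromosome 3, 172750682 to 172821474, plus strand, GRCh38), stood at 4.25 and 4.38 log2 RPKM in shNT. It was at 3.38 and 3.17 with shCENPA1 and at 3.01 in both shCENPA2 libraries. The shNT libraries were the highest, the shCENPA2 libraries the lowest, and no groups overlapped. The log2 fold change was -1.04 with shCENPA1 (SE 0.11, adjusted p = 0.000505, 48.7% of control) and -1.31 with shCENPA2 (SE 0.11, adjusted p = 4.92e-05, 40.5% of control). The smaller change is close to the fold a call needs, and it was -0.97 when shNT library 2 was left out and -0.93 when shCENPA1 library 2 was (in each case the runs labelled replicates 3 and 4), at adjusted p = 0.00224 and 0.0119.

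RACGAP1, a subunit of centralspindlin to which ECT2 binds (chromosome 12, 49976923 to 50033136, minus strand), started at nearly the level of ECT2, with 4.30 and 4.41 log2 RPKM in shNT. It was at 3.32 and 3.26 with shCENPA1 and at 3.10 and 3.15 with shCENPA2. Replicates were close in every group and the groups did not overlap. The log2 fold change was -1.06 (SE 0.09, adjusted p = 0.000265, 47.8% of control) with shCENPA1 and -1.23 (SE 0.09, adjusted p = 3.99e-05, 42.7% of control) with shCENPA2. A processed pseudogene of RACGAP1 on chromosome 12, RACGAP1P1, has no row in the table, and how the counting treated reads that match both is not given in the sources used here.

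PRC1, the crosslinker of the central spindle (chromosome 15, 90966040 to 90995629, minus strand), was the most abundant of the 6 per unit of gene length. Its shNT libraries stood at 4.93 and 5.05 log2 RPKM, those of shCENPA1 at 3.83 and 3.77 and those of shCENPA2 at 3.52 and 3.28. The 3 groups were separate, as in ECT2 and RACGAP1 above. The share of all genes tested with 3 separate groups was not taken. The log2 fold change was -1.19 with shCENPA1 (SE 0.11, adjusted p = 0.000266, 43.7% of control) and -1.59 with shCENPA2 (SE 0.11, adjusted p = 1.84e-05, 33.1% of control). An antisense gene, PRC1-AS1, shares 22286 bases with PRC1 on the opposite strand in GENCODE 44, and the protein-coding gene ENSG00000284946 shares 29440 bases on the same strand. Neither has a row in the table. The library kit keeps the strand, but whether the counting used it, which would not separate the same-strand gene, is not given in the sources used here.

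ANLN, the scaffold of the contractile ring (chromosome 7, 36389821 to 36453791, plus strand), stood at 4.65 and 4.72 log2 RPKM in shNT, at 3.50 and 3.29 with shCENPA1 and at 3.11 and 3.24 with shCENPA2. The shCENPA2 libraries lay just under the lower shCENPA1 library. The log2 fold change was -1.30 with shCENPA1 (SE 0.10, adjusted p = 0.000187, 40.7% of control) and -1.51 with shCENPA2 (SE 0.10, adjusted p = 2.34e-05, 35.0% of control). The first 305 bases of the gene overlap MATCAP2 on the opposite strand, whose row (KIAA0895) had log2 fold changes of 0.17 and 0.30.

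CIT, the kinase of the ring and midbody (chromosome 12, 119685791 to 119877320, minus strand), had the lowest level of the 6 per unit of length. It stood at 2.23 and 2.24 log2 RPKM in shNT, at 0.99 and 0.67 with shCENPA1 and at 0.73 and 0.87 with shCENPA2. The knockdown libraries of both shRNAs overlapped, and both shRNAs lay far under the control. The log2 fold change was -1.41 with shCENPA1 (SE 0.15, adjusted p = 0.00074, 37.7% of control) and -1.43 with shCENPA2 (SE 0.15, adjusted p = 0.000257, 37.1% of control). Despite the low level, which is scaled to a gene length of 13465 bases, CIT rested on 1851 to 6821 reads per library.

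CEP55, the midbody protein that recruits the abscission machinery (chromosome 10, 93496612 to 93529092, plus strand), fell to a similar level with both shRNAs. Its shNT libraries stood at 3.63 and 3.58 log2 RPKM, those of shCENPA1 at 1.88 and 1.96 and those of shCENPA2 at 1.95 and 1.91. The 4 knockdown libraries spanned 1.88 to 1.96 and could not be ordered by shRNA. The log2 fold change was -1.69 with shCENPA1 (SE 0.11, adjusted p = 6.7e-05) and -1.68 with shCENPA2 (SE 0.11, adjusted p = 1.56e-05), which left 31.0% and 31.3% of control. By size of the decrease, CEP55 ranked 34 of the 14624 genes tested with shCENPA1 and 174 with shCENPA2.

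**Figure D2:**
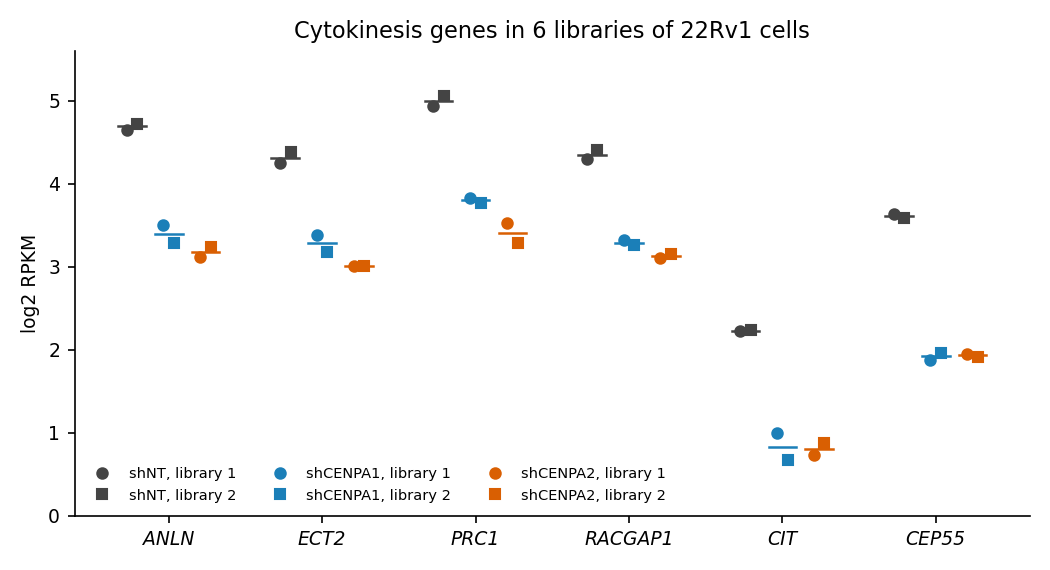
Log2 RPKM of the 6 cytokinesis genes in each of the 6 libraries, with circles for library 1, squares for library 2 and a line at the mean of each shRNA. In every gene the 4 knockdown libraries lie below both shNT libraries, by at least 0.87 log2.

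The order of the levels was the same under all 3 shRNAs. In shNT it ran from PRC1 (mean 4.99 log2 RPKM, SD 0.09) and ANLN (4.69, SD 0.05) through RACGAP1 (4.35, SD 0.08) and ECT2 (4.31, SD 0.09) to CEP55 (3.61, SD 0.03) and CIT (2.23, SD 0.01), each n = 2. RACGAP1 and ECT2 overlapped between libraries in shNT and in shCENPA1, and ANLN and RACGAP1 overlapped in shCENPA1 and in shCENPA2. The other neighbours were separate in every group. The gap between ECT2 and CEP55 was 0.71 log2 in shNT, 1.36 with shCENPA1 and 1.08 with shCENPA2.

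Each gene was also set against the mean of the other 5 in the same library, as a description with no test. On this scale the 6 values of a library sum to 0, so that a gene that falls more than the others moves the others up. CEP55 stood 0.44 and 0.58 log2 below the other genes in shNT, 1.13 and 0.87 below them with shCENPA1 and 0.74 and 0.80 below them with shCENPA2, so that all 4 knockdown libraries lay under both controls. ECT2 was a mean of 0.34 above the others in shNT, 0.63 with shCENPA1 and 0.52 with shCENPA2, and RACGAP1 was 0.39, 0.65 and 0.66 above them, with no overlap between control and knockdown libraries in either gene. For ANLN, PRC1 and CIT the control and knockdown libraries overlapped on this scale. The share of all genes tested that separate in this way was not taken on this scale. On the plain log2 scale, 20.5% of them had all 4 knockdown libraries below both shNT libraries.

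**Figure D3:**
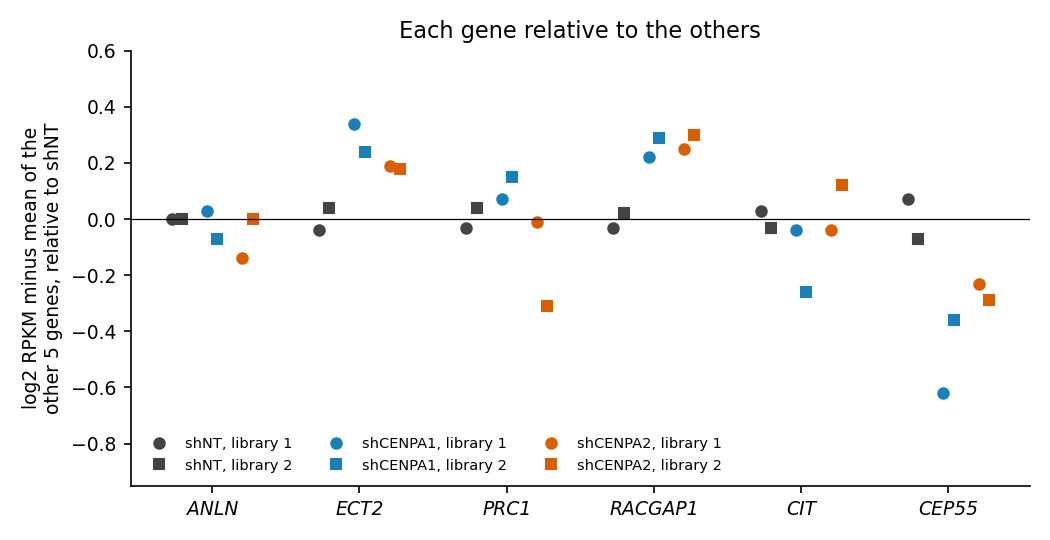
Log2 RPKM of each gene minus the mean of the other 5 genes in the same library, shifted so that the shNT mean is 0. Circles are library 1 and squares library 2. ECT2 and RACGAP1 lie above 0 and CEP55 below 0 in all 4 knockdown libraries, outside their shNT libraries.

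The shRNAs were also compared with each other, as CENPA was lower with shCENPA2 than with shCENPA1 by a log2 difference of -0.98 (adjusted p = 0.0209). This is short of the fold needed for a call, so CENPA itself was not called between the shRNAs. Of the cytokinesis genes, 0 were called between them by limma, and 0 by limma voom on the recovered reads, where 0.732% of the genes tested were called in either direction. The differences, shCENPA2 minus shCENPA1, were -0.40 for PRC1 (95% interval -0.64 to -0.16, adjusted p = 0.122), -0.27 for ECT2 (-0.51 to -0.03, adjusted p = 0.312), -0.22 for ANLN (-0.45 to 0.02, adjusted p = 0.416) and -0.16 for RACGAP1 (-0.37 to 0.05, adjusted p = 0.508). In these 4 genes both shCENPA2 libraries lay below both shCENPA1 libraries, as they did in 20.2% of the genes tested. The unadjusted p from limma was 0.00393 for PRC1 and 0.0308 for ECT2, and was under 0.05 in 13.3% of the genes tested. For CEP55 the difference was 0.01 (95% interval -0.23 to 0.25, adjusted p = 0.976) and for CIT -0.02 (-0.37 to 0.32, adjusted p = 0.971). The intervals leave room for a difference between the shRNAs of up to 0.37 log2 in CIT and 0.25 in CEP55. With 2 libraries a side, the smallest p an exact two-sided permutation test of a single gene can give is 0.33.

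**Figure D4:**
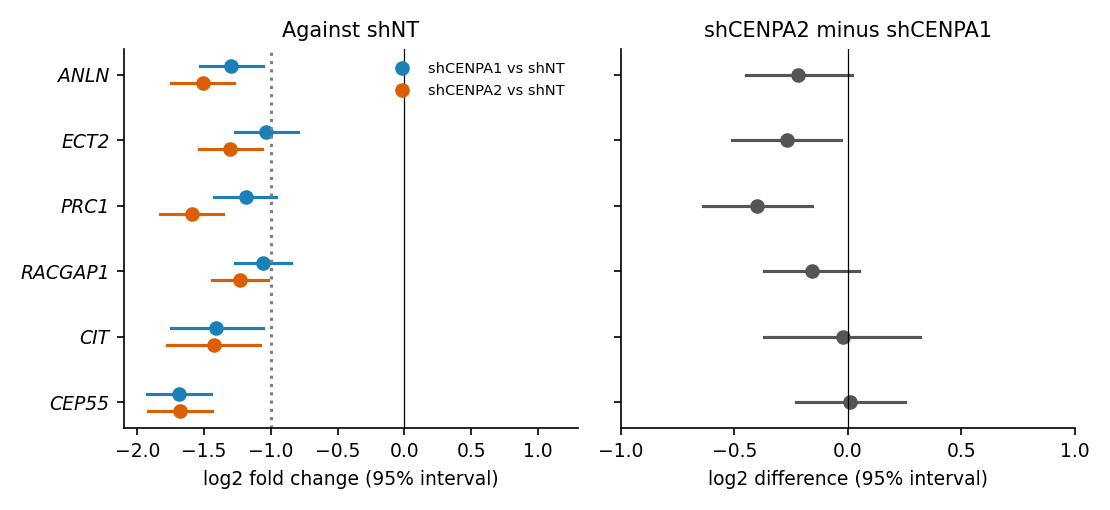
Log2 fold change against shNT (left, shCENPA1 in blue and shCENPA2 in orange) and log2 difference between both CENPA shRNAs (right) for the 6 genes, with 95% intervals from limma. The dotted line on the left is the fold needed for a call. All 12 estimates on the left lie beyond it, at -1.04 to -1.69, while those on the right run from -0.40 to 0.01.

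The other machinery of cytokinesis was taken from lists of 68 genes, of which 67 were tested. The lists were written from general knowledge, with earlier results of these data known. With either shRNA 11 of these 67 were called lower and 0 higher, where 2.65% of the genes tested were called in either direction with shCENPA1 and 6.13% with shCENPA2. Between the shRNAs 0 of the 67 were called by limma, and 0 by limma voom on reads recovered from the values, while 8 had an unadjusted p under 0.05 (11.9%, where 13.3% of all genes tested did), 7 of them in the central spindle list. Of the 11 calls 9 were in the central spindle list, which has 10 genes and had medians of -1.16 (shCENPA1) and -1.59 (shCENPA2) for the log2 fold change. Over all genes tested the medians were 0.00 and 0.01.

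Among the kinesins of the central spindle, KIF23, the partner of RACGAP1 in centralspindlin, had log2 fold changes of -1.16 with shCENPA1 (adjusted p = 0.000535) and -1.50 with shCENPA2 (adjusted p = 4.61e-05). KIF4A, which sets the length of the PRC1 overlap, had -1.25 and -1.63, and KIF20A, which carries the chromosomal passenger complex to the midzone, -1.16 and -1.63. KIF14, which binds PRC1 and citron kinase, had -1.48 and -1.32. KIF20B had -1.13 (adjusted p = 0.0226) and -1.95 (adjusted p = 0.000568) at a low level, 133 to 662 reads per library, and its shCENPA1 call was lost when any shNT or shCENPA1 library was left out. All of these fell with both shRNAs.

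The chromosomal passenger complex, which moves from centromeres to the central spindle at anaphase, had 3 of its 4 genes called lower with both shRNAs. Of all genes tested 1.7% were. The kinase AURKB had log2 fold changes of -1.24 and -1.75, BIRC5 (survivin) of -1.21 and -1.66 and CDCA8 (borealin) of -1.09 and -1.55, with shCENPA1 and shCENPA2 in turn. INCENP, the scaffold of the complex, had -0.72 (adjusted p = 0.0194) and -0.68 (adjusted p = 0.0116), short of the fold needed for a call. The kinase PLK1, which primes RACGAP1 for ECT2 binding, had -1.15 (adjusted p = 0.000505) and -1.41 (adjusted p = 5.81e-05).

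Of the 17 genes of RhoA signalling and the contractile ring, 2 were called lower with each shRNA, where 1.83% and 4.45% of the genes tested were. They were the same genes with both shRNAs. Such overlap was common, as over all genes tested 268 were called lower with shCENPA1 and 249 with both. DIAPH3, a formin that nucleates actin filaments, stood at 2.52 and 2.49 log2 RPKM in shNT, 1.26 and 1.03 with shCENPA1 and 1.02 and 1.00 with shCENPA2, which gave log2 fold changes of -1.36 (adjusted p = 0.000473) and -1.50 (adjusted p = 9.81e-05). ARHGAP11A had -1.34 (adjusted p = 0.00477) and -1.36 (adjusted p = 0.00205). Without library 2 of shCENPA1 the adjusted p of ARHGAP11A with shCENPA1 was 0.0565. The other formin on the list, DIAPH1, had -0.13 (adjusted p = 0.404) and -0.05 (adjusted p = 0.753), and was chosen for mention after its values were seen.

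The GTPase and the motor on which the ring is built did not pass the test. RHOA stood at 7.22 and 7.16 log2 RPKM in shNT, 7.07 and 7.23 with shCENPA1 and 6.99 and 7.08 with shCENPA2, with log2 fold changes of -0.04 (95% interval -0.26 to 0.19) and -0.15 (-0.38 to 0.07). MYH9, the main heavy chain of nonmuscle myosin II, had 0.10 (-0.13 to 0.32) and 0.01 (-0.22 to 0.23). The list as a whole had medians of -0.04 and -0.06. ARHGEF2, another exchange factor for RhoA, had 0.41 (adjusted p = 0.0362) and 0.62 (adjusted p = 0.00225), under the fold needed for a call and named after its values were seen.

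Not 1 of the 7 septins, the 16 ESCRT and abscission genes with a row (of 17 listed) or the 17 membrane traffic genes was called with either shRNA by limma. Over all genes tested the shares called were 2.65% and 6.13%, so that 0 of 40 is near the background. At an unadjusted p under 0.05 stood 5 of these 40 genes with shCENPA1 (12.5%, against 22.0% of all genes tested) and 4 of the 40 with shCENPA2 (against 32.3%). SEPT9 had log2 fold changes of -0.08 and 0.18. The partners that CEP55 recruits had 0.00 and -0.05 (PDCD6IP) and 0.17 and 0.06 (TSG101), beside -1.69 and -1.68 for CEP55 itself. The ESCRT-III subunit CHMP4B had 0.09 and -0.08, and VPS4A, the ATPase that remodels ESCRT-III filaments, 0.13 and 0.02. The medians were -0.08 and -0.00 for septins, 0.11 and 0.04 for the ESCRT list and -0.08 and -0.01 for membrane traffic. At an adjusted p under 0.05 and any fold, SEPT6 was higher with shCENPA2 (0.52, adjusted p = 0.0314).

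**Figure D5:**
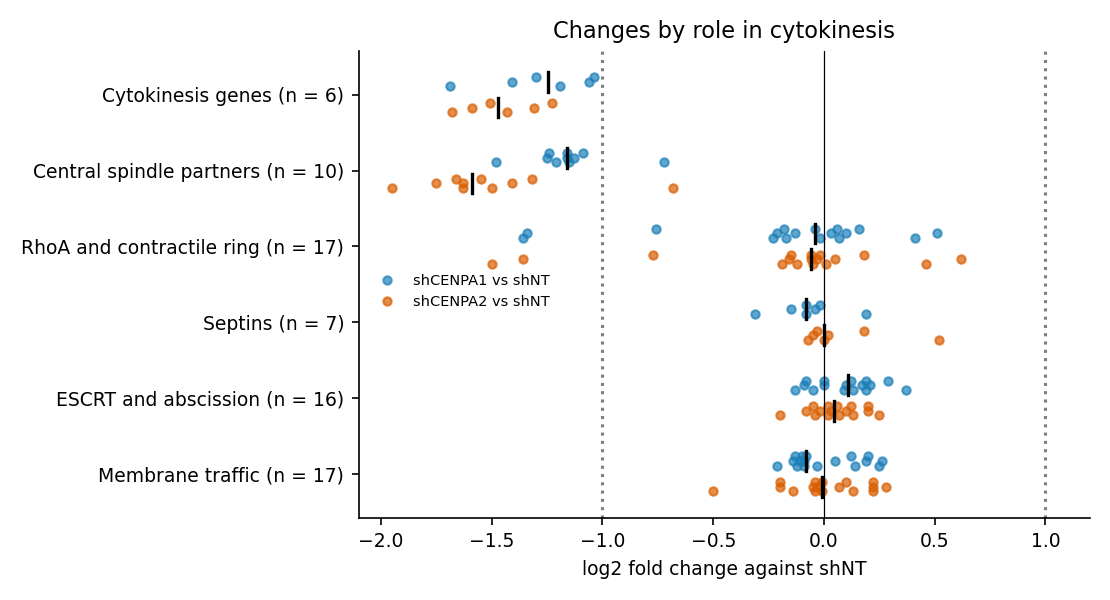
Log2 fold change against shNT of the 6 cytokinesis genes and of 67 further genes grouped by role, 1 point per gene, with shCENPA1 in blue and shCENPA2 in orange. Black bars are medians and dotted lines mark a log2 fold change of 1 in either direction. The central spindle list has medians of -1.16 and -1.59, and the medians of the 4 other lists lie within 0.11 of 0.

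Markers of cells in G2 and mitosis moved with the cytokinesis genes. Of 10 such genes (MKI67, TOP2A, CCNA2, CCNB1, CCNB2, CDK1, AURKA, BUB1, UBE2C and TPX2), 9 were called lower with shCENPA1 and 10 with shCENPA2. Lower calls applied to 1.83% and 4.45% of the genes tested. The median log2 fold changes of the 10 markers were -1.23 and -1.61, beside -1.24 and -1.47 for the 6 cytokinesis genes. The summed level of the 10 markers was 286 and 301 RPKM in shNT, 127 and 130 under shCENPA1 and 102 and 98.2 under shCENPA2. That of the cytokinesis genes was 112 and 118, then 51.6 and 47.4, then 42.2 and 41.7. The part of the share of dividing cells in the fall of the cytokinesis genes was not tested, and in bulk RNA fewer cells in these phases and less RNA per cell cannot be told apart. Of the stromal markers, DCN rose from -2.90 and -3.19 log2 RPKM in shNT to between -1.60 and -1.05 in the knockdown libraries (adjusted p = 0.00271 and 0.0053), while COL1A1 had log2 fold changes of 0.09 and 0.12, and the part of DCN-expressing cells in these results was not tested.

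The profile of each gene over the 6 libraries, centred on the shNT mean, was compared with those of the 12050 genes whose log2 RPKM averaged 0 or more. The 5 genes nearest to the mean of the cytokinesis genes, by root mean square distance in log2 units, were CDC25C (0.0636), DIAPH3 (0.067), KIAA1524 (0.0753), SPAG5 (0.0806) and HELLS (0.0834). Their log2 fold changes were -1.15 to -1.36 with shCENPA1 and -1.44 to -1.50 with shCENPA2. All 5 were called lower with both shRNAs, which choosing genes by closeness to the mean of the cytokinesis genes largely fixes in advance. Taken singly, ECT2 had RACGAP1 as its nearest gene in the whole search (0.0658). PRC1 was nearest to the kinesin KIF2C (0.0363), RACGAP1 to the checkpoint kinase CHEK1 (0.0371), ANLN and CIT both to GTSE1 (0.0564 and 0.067) and CEP55 to ACBD7 (0.0928). The distance rests on 6 libraries that share depth and composition and is given as a description.

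The motif counts of the promoters were also set beside the calls. Of the 10 wider-list genes that were called lower with both shRNAs and had a promoter entry, 6 had a CHR match and 9 an NF-Y box. Of the 51 other wider-list genes with an entry, 8 had a CHR match and 24 an NF-Y box. Of the 10148 genes tested with an entry, 13.3% had a CHR match and 43.3% an NF-Y box. Among all genes called lower with both shRNAs, 37.4% of the 190 with an entry had a CHR match and 65.8% an NF-Y box. The cytokinesis genes themselves are part of that last set. Whether these motifs had a part in the fall of any gene was not tested.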

How the data were processed

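RNA-seq was available for 22Rv1 cells with 3 shRNAs, 2 libraries each, run in 2 lanes (12 runs). The authors deposited log2 RPKM per gene and run. Per the labels and the study's methods, reads were trimmed with Trim Galore, aligned to hg38 with STAR and counted with HTSeq, and versions are not given in the sources used here. The deposited log2 values hold a prior count of 0.25 reads at the mean run size, which slightly shrinks changes of low genes. The steps between values gave back whole reads for 14828 of 14828 genes (largest distance from a whole read 0.000796) and used for depth.

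Lanes were averaged, and genes averaging -3 log2 RPKM or more entered a fit by limma 3.58.1 under R 4.3.3 (eBayes with a trend, 3 groups in one fit, no covariate). Intervals are 95%. The number of libraries limits the precision. Library numbers did not pair the samples.

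The cytokinesis genes and lists were chosen with earlier results of these data known. Named were the 6 genes, CENPA, wider-list genes called or fixed as the core (RHOA, MYH9, SEPT9, CHMP4B, VPS4A, TSG101 and PDCD6IP), and the nearest profiles. INCENP, SEPT6, DIAPH1, ARHGEF2 and the stromal marker DCN were named after their values were seen. Older symbols were matched through RefSeq synonyms, so that SEPT9 is SEPTIN9, and CHMP4A was not analysed here. Gene positions are from GENCODE 44 (GRCh38, the assembly of hg38) and promoters from RefSeq. Alternatives were other treatments of lanes, filters, constants added to RPKM (0.1 and 1), scalings, variance models, a replicate block, left-out libraries and limma voom on the recovered reads.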

Additional observations from a re-analysis of the deposited data

How the results depend on the processing

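Of 342 alternative results for the 6 cytokinesis genes, 337 stayed on the same side of the threshold and 0 calls were reversed. The other 5 were with shCENPA1. ECT2 had a log2 fold change of -0.999 with lane 8 only and -0.97 with 1 added to RPKM. It had -0.97 when shNT library 2 was left out and -0.93 when shCENPA1 library 2 was. RACGAP1 had -0.99 with 1 added to RPKM. The 342 include the comparison between the shRNAs, where 0 of these genes were called by limma. They also include settings that leave a fold change as it is, such as lanes taken as replicates or the replicate block. Leaving out each library in turn gave 5 to 6 of the 6 genes with shCENPA1, 6 to 6 with shCENPA2 and 0 between the shRNAs. In the wider list it gave 9 to 11 genes with shCENPA1, 11 to 11 with shCENPA2 and 0 between the shRNAs. With 1 added to RPKM the wider list had 6 genes called with shCENPA1 and 8 with shCENPA2, each in place of 11. That constant draws fold changes towards 0, most at low levels. With shCENPA1, KIF23 (-0.97), KIF20A (-0.996) and PLK1 (-0.988) then fell just short of the fold needed. ARHGAP11A (-0.75) and KIF20B (-0.44) fell further short. With shCENPA2, KIF14 (-0.993) fell just short, and ARHGAP11A (-0.76) and KIF20B (-0.64) further short. Where a group is left with 1 library, that library is assumed to vary like the others.

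Over all genes tested, 388 were called with shCENPA1 (119 with 1 added to RPKM, 252 to 427 with a library left out) and 897 with shCENPA2 (529 among genes averaging 0 log2 RPKM or more, 317 with 1 added to RPKM). Between the shRNAs 107 were called, against 230 with lanes as replicates, 53 among genes averaging 0 or more, 17 with 1 added to RPKM and 22 to 224 with a library left out. Deviations of same-numbered libraries correlated at -0.0641, -0.0952 and -0.145, so the numbers were not taken as pairs. With the replicate block 6, 6 and 0 of the cytokinesis genes and 11, 11 and 0 of the wider list were called in the 3 comparisons, and 383, 891 and 95 of all genes. No scaling tried moved the median of all genes by as much as 0.1 log2.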
